A study of Mus musculus with 2 samples.

Results

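Chemokine receptors are proteins of the cell surface that bind chemokines, the small secreted proteins that guide the migration of leukocytes. The receptors described here were the 9 mouse genes Ccr1, Ccr2, Ccr3, Ccr7, Ccrl2, Cx3cr1, Cxcr3, Cxcr4 and Ackr3, which were found on the array through the transcript accession of each probe. They were represented by 12 probes of the 56598 gene probes compared, and by 9 of 22910 named genes. Ccr7, Cx3cr1 and Cxcr4 had 2 probes each and the other 6 receptors had 1. A probe is called detected here where the scanner's software marked its spot as well above background. On at least 1 array, 8 of the 9 receptors were detected, all but Ackr3.

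Total RNA of primary macrophages was compared with that of self-renewing macrophages on 1 array for each. Both cultures were grown from bone marrow of C57BL/6 mice in medium with 100 ng/ml recombinant human M-CSF, the growth factor on which macrophages depend. The primary macrophages were collected at day 5. The self-renewing macrophages were cells of the same kind of culture after passage 4. The labels name no further agent and no genetic change, and give both as male.

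Most chemokine receptors pass their signal through an inhibitory G protein, and are then phosphorylated by receptor kinases and taken up with arrestins. CCR2 releases inflammatory monocytes from the bone marrow and draws them to tissue, and low CCR2 is commonly used to mark resident macrophages that monocytes do not replace. CX3CR1 is high on patrolling monocytes and on many resident macrophages, and CXCR4 holds blood-forming cells and young leukocytes in the bone marrow. Ackr3 and Ccrl2 encode atypical members, which bind a chemokine or the chemoattractant chemerin without signalling through a G protein.

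In the self-renewing macrophages, the signal of Ccr2, Ccr7 and Ccr1 was lower than in primary macrophages, and that of Cxcr4 and Cx3cr1 was higher. Ccr3, Ccrl2 and Cxcr3 lay within 2-fold. Of the 8 receptors detected, 3 were at least 2-fold lower, where 8.38% of all 15504 named genes tested were, and 2 were at least 2-fold higher, where 4.77% were. Probe by probe, 4 of 11 receptor probes were at least 2-fold lower against 6.55% of all gene probes detected, and 4 were at least 2-fold higher against 4.61%. The receptors were chosen with earlier results of these data known, so these shares cannot show an excess among them. With 1 array per cell type there was no spread between cultures, so no test was made, and these values describe the 2 arrays. The error given with an intensity is the estimate of the scanner's software for that spot, and that of a difference is the same error carried over from both arrays. It covers the reading of 1 spot on each array and not the variation between cultures. In RNA of whole cultures, fewer cells of a type and less RNA per cell cannot be told apart.

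The sequences before the transcription start sites of the receptors that differed are shown, since these stretches belong to genes with signals that moved in opposite directions. The bases are the 250 before the start in RefSeq, assembly GRCm38.p6, written on the strand of the gene, with each CG dinucleotide in capitals. Such a stretch was found for 8 of the 9 receptors and is printed for 2 that were lower and 2 that were higher in the self-renewing macrophages.
Ccr2 (chr9:124101933-124102182, plus strand): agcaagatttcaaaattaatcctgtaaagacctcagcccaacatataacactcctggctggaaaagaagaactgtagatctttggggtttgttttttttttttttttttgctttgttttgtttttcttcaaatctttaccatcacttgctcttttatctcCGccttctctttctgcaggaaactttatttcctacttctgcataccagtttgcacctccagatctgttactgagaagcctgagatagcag
Ccr1 (chr9:123968693-123968942, minus strand): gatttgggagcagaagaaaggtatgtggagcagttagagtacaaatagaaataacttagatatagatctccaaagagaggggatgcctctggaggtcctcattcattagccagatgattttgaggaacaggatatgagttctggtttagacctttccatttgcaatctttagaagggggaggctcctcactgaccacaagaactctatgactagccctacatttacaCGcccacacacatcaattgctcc
Cx3cr1 (chr9:120068297-120068546, minus strand): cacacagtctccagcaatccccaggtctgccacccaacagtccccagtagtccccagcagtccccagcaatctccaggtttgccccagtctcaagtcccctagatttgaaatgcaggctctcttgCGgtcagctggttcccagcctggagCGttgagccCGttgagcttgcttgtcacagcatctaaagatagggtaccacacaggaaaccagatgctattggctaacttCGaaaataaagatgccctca
Cxcr4 (chr1:128592300-128592549, minus strand): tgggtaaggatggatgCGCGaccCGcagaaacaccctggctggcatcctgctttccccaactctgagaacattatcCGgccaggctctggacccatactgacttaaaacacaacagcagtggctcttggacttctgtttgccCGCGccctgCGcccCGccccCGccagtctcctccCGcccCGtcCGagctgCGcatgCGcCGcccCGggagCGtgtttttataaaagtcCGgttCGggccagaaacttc
The stretches of Ccr2 and Ccr1 held 1 CG dinucleotide each, at a GC content of 37.2% and 43.6%. That of Cx3cr1 held 4 at 53.6% GC, and that of Cxcr4 held 19 at 61.2% GC. Over all 32851 stretches of this length, the median was 6 CG dinucleotides and 52.4% GC. The letters TATAAA, searched on both strands, were found in the stretch of Cxcr4 in 2 overlapping matches, 1 on each strand, at positions -32 and -30 from the start, and in 12.4% of all stretches. They were not found in those of Ccr2, Ccr1 and Cx3cr1. The letters GAGGAA, searched on both strands, were found once in the stretch of Ccr1 and in none of the other 3, where 23.3% of all stretches held them. Ccr3, with a signal that was alike on both arrays, had 0 CG dinucleotides and 1 match to GAGGAA.

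Before the receptors were compared, the arrays were checked against their labels. All 11 genes of a macrophage list, among them Adgre1, which encodes F4/80, and Csf1r, which encodes the receptor for M-CSF, were detected on both arrays. Of 6 Y-linked genes, 0 were detected in primary macrophages and 4 in self-renewing ones, while Xist, which female cells transcribe, was detected in primary macrophages. The primary array therefore went against its label of male mice. Each cell type has 1 array, so that no comparison could be made without it, and any difference between male and female mice cannot be told apart from that between the cell types. Of the receptors, Cxcr3 lies on the X chromosome. The arrays shared 1 slide and 1 scan, 0 gene spots were saturated, and 61.5% of gene probes were detected on the primary and 58.5% on the other array.

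Ccr2 had the largest difference of the receptors measured on both arrays. Its probe gave an intensity of 3634 ± 363 in primary and 37.5 ± 4.80 in self-renewing macrophages, where an array's 75th percentile stood at 434 and 446. On the self-renewing array the spot read 75.5 against a local background of 27.5, so that a low signal remained. Relative to the 75th percentile, the level went from 3.07 to -3.57 log2, a difference of -6.64 ± 0.23 log2, or 99.6-fold. Ccr2 ranked 5 from the bottom among 14003 named genes measured on both arrays. Next below it stood Mmp8, a collagenase of neutrophils, at -7.21 log2, and Hpse, which encodes heparanase, at -7.40 log2. Next above it stood Apoe, the lipid carrier apolipoprotein E, at -6.61 log2, and Csrp2, at -6.42 log2. With a model-based background correction, which adds an offset to each signal, the difference of Ccr2 was -5.19 log2.

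Ccr7, the receptor that leads mature dendritic cells to lymph nodes, was detected in primary macrophages and not in self-renewing macrophages by both its probes. The brighter probe, A_55_P2023542, gave an intensity of 227 ± 22.8 in primary and 9.29 ± 3.01 in self-renewing macrophages. Since the second value was not detected, the difference has a bound, set by the lowest level detected on that array, and Ccr7 was at least 17.7-fold lower. The dimmer probe, A_51_P420229, gave 32.8 ± 4.19 and 2.88 ± 2.89, and a bound of at least 2.57-fold lower.

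Ccr1, a receptor for CCL3, CCL5, CCL6 and CCL9, was likewise detected in primary and not in self-renewing macrophages. Its intensity was 73.6 ± 7.74 in the former and 5.28 ± 2.74 in the latter, and it was at least 5.75-fold lower, as measured by 1 probe. Among all named genes detected, 7.62% were detected on the primary array and not on the other. With the model-based background correction, the bound of Ccr1 was -1.002 log2, at the edge of 2-fold. That of the brighter Ccr7 probe was then -2.03 log2, against -4.15 log2, and that of the dimmer one -0.48 log2. The mean over both probes of Ccr7 gave -2.75 log2.

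**Figure D1:**
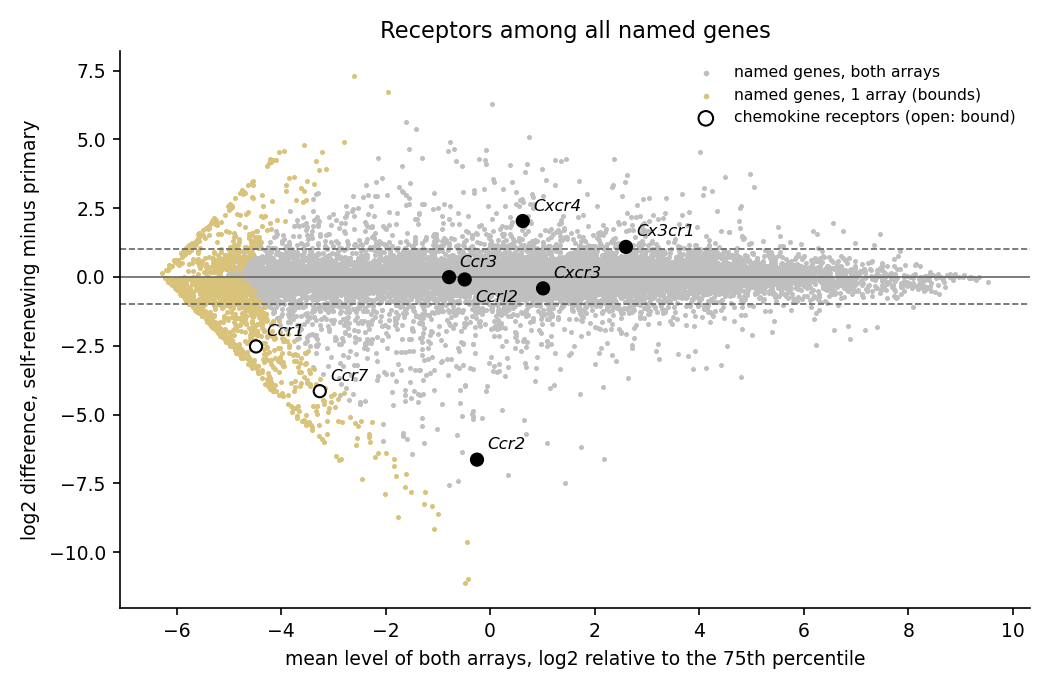
Log2 difference between self-renewing and primary macrophages (vertical) against the mean level of both arrays (horizontal, log2 relative to the 75th percentile) for 15504 named genes, with bounds for genes detected on 1 array. Black points are the receptors measured on both arrays, open points those with a bound, and dashed lines mark 2-fold. Ccr2 lies at the lower edge of the cloud, Cxcr4 and Cx3cr1 lie above the upper dashed line, and Ccr3, Ccrl2 and Cxcr3 lie between the lines.

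Cxcr4, the receptor for CXCL12, had the largest rise of the receptors. Its brighter probe, A_52_P585124, gave an intensity of 330 ± 33.2 in primary and 1390 ± 139 in self-renewing macrophages. The dimmer probe, A_55_P2745744, gave 48.3 ± 5.45 and 140.0 ± 14.3. Both probes were detected on both arrays and were 4.09-fold and 2.82-fold higher after passage 4, with errors of 0.20 and 0.22 log2. With the model-based background correction the dimmer probe was 0.90 log2 higher and so fell below 2-fold. By the brighter probe, Cxcr4 ranked 149 from the top among the 14003 genes measured on both arrays, next to Gngt2, which encodes a gamma subunit of G proteins, at 2.03 log2, Ltc4s, the synthase of leukotriene C4, at 2.03 log2, and Rgl3 and Apbb1, at 2.04 and 2.06 log2.

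Cx3cr1, the receptor for the membrane-bound chemokine CX3CL1, was also higher in the self-renewing macrophages by both its probes. The brighter probe, A_55_P2007964, gave 1797 ± 180 in primary and 3940 ± 394 in self-renewing macrophages, and the dimmer one, A_52_P99810, gave 214 ± 21.6 and 501 ± 50.2. The differences were 1.09 ± 0.20 and 1.18 ± 0.21 log2, or 2.13-fold and 2.27-fold, and so exceeded 2-fold by less than their errors. The 2 probes of Cx3cr1 differed by 0.09 log2 and those of Cxcr4 by 0.54 log2. Over 5077 genes, single probes varied around the mean of their gene with a pooled SD of 0.32 log2. A gap between 2 probes is wider than the deviation of either from their mean.

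Cxcr3, a receptor for CXCL9 and CXCL10 that is best known from activated T cells, gave an intensity of 1010 ± 101 in primary and 779 ± 78.0 in self-renewing macrophages. Its difference of -0.42 ± 0.20 log2 was within 2-fold. Ccr3, the eotaxin receptor of eosinophils, gave 252 ± 25.4 and 258 ± 26.0, a difference of -0.01 ± 0.21 log2. Ccrl2, which binds chemerin, gave 319 ± 32.0 and 308 ± 30.9, a difference of -0.09 ± 0.20 log2. For Ccr3 and Ccrl2 the difference was smaller than its error, and its sign changed with the scaling of the arrays. With the values as scaled by the authors, which lie 0.19 log2 higher for every gene of the self-renewing macrophages than with the scaling used here, they were 0.18 and 0.10 log2. The spot of Ackr3, the second receptor for CXCL12, read 38 and 41 against local backgrounds of 30 and 32 and was not detected on either array, so no difference is given.

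**Figure D2:**
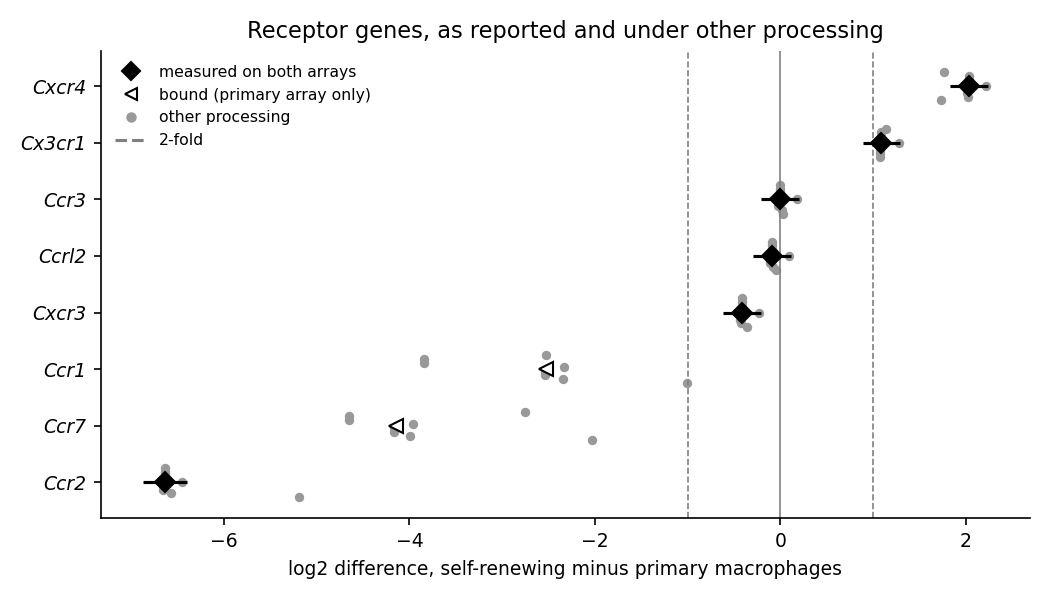
Log2 difference between self-renewing and primary macrophages (horizontal) for the 8 receptors detected, as reported (black, with the error of the scanner's software; open triangles are bounds) and under other ways of processing the arrays (grey). Dashed lines mark 2-fold. Ccr2, Ccr7, Ccr1, Cx3cr1 and Cxcr4 kept their direction wherever they had a value, while Ccr3 and Ccrl2 lay on both sides of 0.

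Several receptors are neighbours in the genome. On chromosome 9, the protein-coding genes Ccr1, Ccr1l1, Ccr3 and Ccr2 follow each other in this order, with Cxcr6, Xcr1 and Ccr9 close by, and Cx3cr1 lies next to Ccr8. The neighbours did not move together. Ccr1 was at least 5.75-fold lower, Ccr3 differed by -0.01 log2 and Ccr2 by -6.64 log2, while Ccr1l1 and Xcr1 were not detected. Next to Cx3cr1, which was 1.09 log2 higher, Ccr8 was -1.02 log2, from an intensity of 77.5 to 39.4.

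Of 14 other chemokine receptors, 7 were detected, 5 on the primary and 6 on the self-renewing array. Their median difference was -0.04 log2, where that of all named genes was -0.02 log2. Ccr8 and Ccr6, a receptor of lymphocytes and dendritic cells that was at least 3.28-fold lower, were the 2 that were at least 2-fold lower. The share of all named genes was 8.38% for at least 2-fold lower and 4.77% for at least 2-fold higher. Ccr10 was detected in self-renewing and not in primary macrophages, and was at least 2.75-fold higher, at an intensity of 34.6.

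The ligands of the 9 receptors were measured in the same RNA. Of 20 ligand genes, 19 had a probe and 14 were detected, of which 3 were at least 2-fold higher, 3 at least 2-fold lower and 8 within 2-fold, with a median of -0.39 log2. Among all named genes tested, 4.77% were at least 2-fold higher, 8.38% at least 2-fold lower and 86.8% within 2-fold, with a median of -0.02 log2. Ligands of 1 receptor went in different directions. For CCR2, Ccl2 went from an intensity of 33183 to 20702, or -0.72 log2, Ccl7 from 4918 to 2750, or -0.88 log2, and Ccl12 from 436 to 1001, or 1.16 log2. For CCR1, Ccl3 was 1.63-fold higher, from 6525 to 10942, Ccl9 was alike at 75177 and 80101, Ccl6 was 3.95-fold lower, and Ccl5, which CCR3 also binds, was 2.98-fold lower. Ccl24, an eotaxin that acts on CCR3, was 2.17-fold higher, and Cxcl10, which acts on CXCR3, was 2.87-fold higher at 1149 and 3392. Cx3cl1, the ligand of CX3CR1, went against its receptor, from 86.0 to 17.6, or 5.04-fold lower, with an error of 0.33 log2. The second of these values was close to the lowest intensity detected on the self-renewing array, 13.2. Cxcl12, the ligand of CXCR4, was detected in primary macrophages only, by 1 of its 2 probes, and was at least 1.40-fold lower in self-renewing ones. Its intensity of 17.9 was close to the lowest detected on the primary array, 11.8. Ccl19 and Ccl21a, the ligands of CCR7, were not detected.

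The genes that carry and end the signal of these receptors were mostly within 2-fold, as genes in general were. Of 30 such genes, 29 were detected on both arrays and 27 lay within 2-fold, a share of 93.1% where that of all named genes was 86.8%, and the median was 0.24 log2. Grk3, a kinase that phosphorylates active receptors, was 2.94-fold higher, from 329 to 994, and Plcb2, a phospholipase activated by G proteins, was 2.40-fold lower, from 1008 to 432, with its 4 probes between -1.58 and -1.23 log2. Below 2-fold, Grk2 was 0.77 log2 and the arrestin gene Arrb2 0.93 log2 higher, and Gnai2, which encodes an inhibitory G protein subunit, differed by 0.28 log2.

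**Figure D3:**
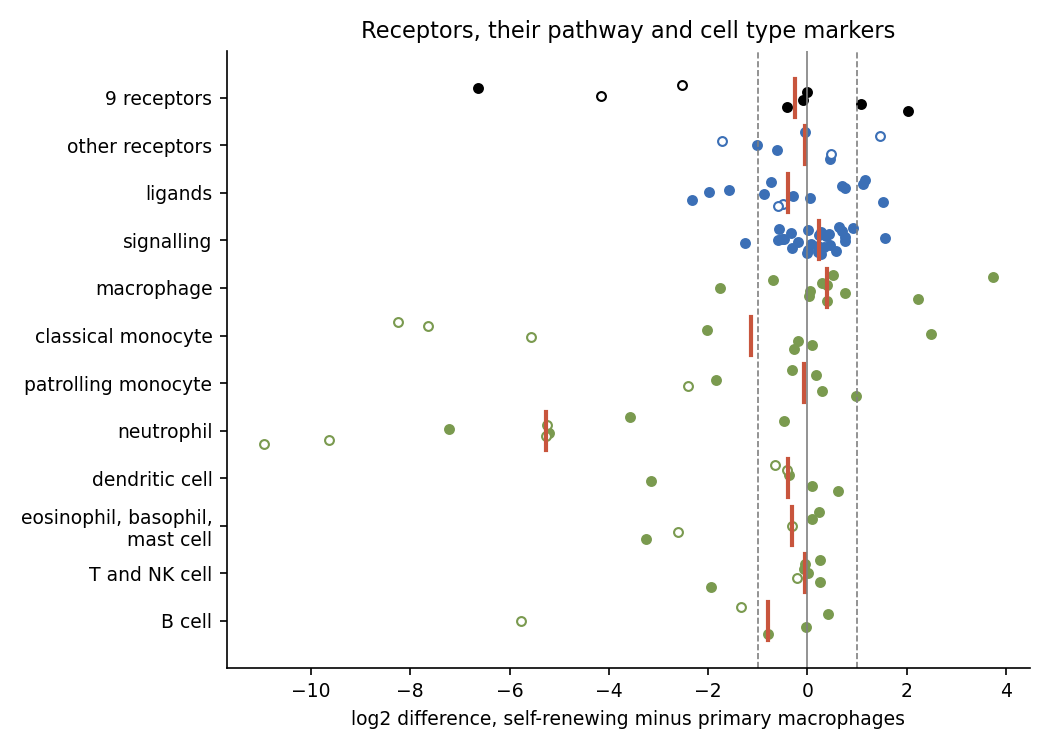
Log2 difference between self-renewing and primary macrophages (horizontal) for the genes detected in each list: the 9 receptors, their pathway (blue) and markers of cell types (green), with open points for bounds, red bars for medians and dashed lines at 2-fold. The neutrophil list has the lowest median, -5.26 log2, the classical monocyte list spreads from -8.26 to 2.50 log2, and 27 of the 29 signalling genes detected lie between the dashed lines.

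For Ccr2 and Ccr1, markers of classical monocytes and of neutrophils were compared. Of 8 classical monocyte markers, 8 were detected on the primary and 5 on the self-renewing array, 4 were at least 2-fold lower and 1 at least 2-fold higher. Chil3, F13a1 and Plac8 had bounds of -8.26, -7.64 and -5.58 log2 and Hp was 4.04-fold lower, whereas Ly6c2, the marker by which inflammatory monocytes are sorted, was 5.67-fold higher, from 5025 to 29296. The other probe of F13a1 had a bound of only -0.45 log2. The summed level of the list, in multiples of an array's 75th percentile, was 822 in primary and 760 in self-renewing macrophages. S100a4 made up most of it, and without that gene the sum was 30.1 and 67.1. Of 10 neutrophil markers, 8 were detected on the primary and 4 on the self-renewing array, and 7 were at least 2-fold lower. Their summed level was 119 and 6.53, or 60.5 and 6.52 without S100a9. Elane, the 1 marker within 2-fold, differed by -0.47 log2, from 3602 to 2671, and made up most of the sum on the self-renewing array. Retnlg was not detected. Beside both lists, 8.38% of all named genes tested were at least 2-fold lower and 4.77% at least 2-fold higher. The part of monocytes and neutrophils in the difference of Ccr2 and Ccr1 was not tested.

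For Ccr7, markers of dendritic cells were compared. Of 7 such genes, 6 were detected on the primary and 4 on the self-renewing array, at a summed level of 206 and 208 and, without Siglech, of 12.2 and 1.56. Of the 6, 1 was at least 2-fold lower, 0 were at least 2-fold higher and 5 lay within 2-fold. Among all named genes tested, 8.38% were at least 2-fold lower and 4.77% at least 2-fold higher. The gene that was lower was Itgax, which encodes CD11c and made up most of the sum without Siglech. Itgax was 8.93-fold lower, from 5180 to 597, by its brighter probe. Its other probe gave -1.69 log2. Zbtb46 was 0.62 log2 higher, from 26.2 to 41.5, Fscn1 differed by -0.37 log2, and Clec9a was not detected. Of 6 B cell markers, 5 were detected on the primary and 3 on the self-renewing array, at a summed level of 2.12 and 0.389, or 0.513 and 0.382 without Cd79b, which was at least 54.4-fold lower. The part of either cell type in the difference of Ccr7 was not tested.

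Beside Ccr3, which was alike on both arrays, stood a list of 8 eosinophil, basophil and mast cell genes. Of these, 5 were detected on the primary and 3 on the self-renewing array. Their summed level was 0.907 and 0.338, or 0.472 and 0.293 without Siglecf. Siglecf and Prg2 were 9.49-fold and at least 6.07-fold lower, where 8.38% of all named genes tested were at least 2-fold lower. The other 3 detected lay within 2-fold. Il5ra and Fcer1a were 0.09 and 0.24 log2 higher, and Mcpt8 had a bound of -0.30 log2. Epx, Cpa3 and Ms4a2 were not detected. Beside Cxcr3, 7 of 10 T and NK cell genes were detected on the primary and 6 on the self-renewing array, at a summed level of 8.44 and 8.06, and Nkg7 was 3.86-fold lower. Cd3g, Cd8a and Ncr1 were not detected.

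For Cx3cr1 and Cxcr4, markers of macrophages and of patrolling monocytes were compared. In the macrophage list, C1qa, a complement gene, was 13.4-fold higher, from 3706 to 51220, and Mertk, a receptor for dying cells, was 4.68-fold higher, from 524 to 2520. Fcgr1, which encodes the high-affinity receptor for IgG, was 3.39-fold lower, and the summed level of the list was 958 and 1360. In the list of patrolling monocytes, 0 of 6 genes were at least 2-fold higher and 2 were at least 2-fold lower, namely Nr4a1 at 3.57-fold and Pglyrp1 at no less than 5.32-fold, with a summed level of 11.7 and 12.6, or 4.23 and 3.32 without Spn. For comparison, 4.77% of all named genes tested rose by 2-fold or more, and 8.38% fell by as much. The part of macrophages and patrolling monocytes in the difference of Cx3cr1 and Cxcr4 was not tested.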

How the data were processed

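Cy3-labelled RNA of 1 culture of each cell type was hybridised to Agilent SurePrint G3 mouse arrays. The authors deposited the intensity of each spot from Feature Extraction 11.5.1.1, background-subtracted and detrended within the array, with flags for background, saturation and outliers. They also deposited the intensity times a constant, 1.07 for primary and 1.19 for self-renewing macrophages, the choice of which is not given in the sources used here.

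Here log2 intensities were set against the 75th percentile of the gene probes on the same array. On each array, control spots and 63 gene spots with an outlier flag were left out. Accessions in a GRCm38.p6 table named 32988 of 56598 probes. For a gene with several probes, the detected probe with the highest mean level was used. Where 1 array detected a probe, the other array's value was replaced by its lowest detected level, if that was higher, to give a bound. No test was made, as the number of arrays limits the precision, and the threshold was 2-fold. The code was tested on simulated data. The members and lists were chosen with earlier results of these data known. Genes named in the text are the 9 receptors, and the 2 genes on either side of those with the largest fall and rise. List genes were drawn from those differing by 2-fold or detected on 1 array, at most 8 a list, and from undetected markers. Not every such gene is named, as with Cxcr2, Rarres2 and most of the neutrophil markers. Other ligand, signalling and marker genes were named after their values were seen. The 9 alternatives changed the background correction, the scaling, the filter on dim probes and the use of several probes. Python 3.11.15 (numpy 2.4.6, pandas 2.3.3, matplotlib 3.10.9) and R 4.3.3 (limma 3.58.1) were used.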

Additional observations from a re-analysis of the deposited data

How the results depend on the processing

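No paired analysis was possible because there was a single array for either kind of macrophage. Over 9 alternatives, 62 of 70 values of the receptor genes stayed within 0.32 log2 of the reported value, which is the SD of probes for the same gene, and 8 did not. Ccr1, Ccr7, Ccr2, Cxcr3, Cx3cr1 and Cxcr4 kept their direction wherever they had a value. The sign of Ccr3 changed with normexp (offset 50), quantile normalization and the authors' scaled values, and that of Ccrl2 with the last of these. Ccrl2 lay between -0.11 and 0.10 log2. Normexp gave -1.002 log2 for Ccr1, -2.03 log2 for Ccr7 and -5.19 log2 for Ccr2. Its offset by construction draws dim signals together. With no filter on background, or with the flag for positive and significant spots, Ccr1 was -3.84 and Ccr7 -4.65 log2, since the bound then fell away or lay lower, and with no filter Ackr3 was 0.16 log2. The flag for positive and significant spots marked 10 receptor probes on the self-renewing array, where the flag used here marked 8. Detection on that array thus depended on the flag. The mean over probes gave -2.75 log2 for Ccr7. With only probes detected on both arrays, Ccr1 and Ccr7 had no value and the number of receptors at least 2-fold lower was 1 in place of 3. The median of the ligands was 0.051 log2 with no filter, against -0.39 log2. Over all named genes, 739 were at least 2-fold higher and 1300 lower (36.2% higher). These were 429 and 750 with normexp, 1192 and 2336 with no filter and with the other flag, and 588 and 782 with probes detected on both arrays. The authors' scaled values gave 49.2% higher, as they shift every gene by 0.19 log2. The signal over background limits Ccr1 and Ccr7, which have bounds, and Ackr3, which has no value.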
